A study of Mus musculus with 33 samples.

Results

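The Krüppel-like factors described here are 10 mouse genes, Klf2, Klf3, Klf4, Klf5, Klf6, Klf7, Klf9, Klf10, Klf13 and Klf15, taken by gene symbol from the 52631 genes of a deposited expression table. The table holds 17 Klf genes in all. The 10 were chosen by name to set genes linked to pluripotency, to endoderm and to cellular stress side by side. Each had 1 row in the table, and each passed the filter on low values, as did 16508 genes in total, by reaching 1 FPKM (fragments scaled by transcript length and library size) in 3 or more of the libraries. All 10 are protein-coding genes, each on a chromosome of its own. On GRCm38 with GENCODE models, Klf2 (ENSMUSG00000055148) lies at chr8:72319033-72321656 (plus strand), Klf4 (ENSMUSG00000003032) at chr4:55527143-55532466 (minus strand) and Klf5 (ENSMUSG00000005148) at chr14:99298691-99315036 (plus strand). Klf6 (ENSMUSG00000000078) lies at chr13:5861482-5870394 (plus strand) and Klf15 (ENSMUSG00000030087) at chr6:90462576-90475238 (plus strand).

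Krüppel-like factors bind GC-rich and CACCC-type DNA boxes through a conserved set of zinc fingers at the carboxyl end, and share these boxes with the related Sp proteins. Their amino ends differ and recruit different partners. Klf3 and its relatives Klf8 and Klf12 bind the CtBP corepressors, Klf9, Klf10, Klf11, Klf13 and Klf16 bind the Sin3A corepressor, and Klf2, Klf4, Klf5, Klf6 and Klf7 mostly act as activators. In mouse embryonic stem cells Klf2, Klf4 and Klf5 are part of the circuit that holds the naive pluripotent state, Klf4 downstream of leukaemia inhibitory factor (LIF) and its transducer Stat3. In other tissues Klf2 and Klf4 are known from endothelium and smooth muscle, Klf5 from epithelia, Klf6 and Klf10 as early response genes, the latter to TGF-beta, and Klf9 and Klf15 as targets of the glucocorticoid receptor.

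RNA was sequenced from 33 libraries in 11 groups of 3, all labelled with the mouse strain 129S2/SvPas. Embryonic stem cells (mES, day 0, no inducer) were grown on mitomycin-inactivated mouse embryonic fibroblasts in 15% serum with LIF. For the RA arm, stem cells were plated on gelatin, without feeder cells, in serum with 10 µM all-trans retinoic acid (atRA) and sampled at day 4, 7 and 10 (RA-4d, RA-7d, RA-10d). The RA/CHIR arm had 10 µM atRA and 5 µM CHIR, the short name used for an inhibitor of GSK3 that activates Wnt signalling, and was sampled on the same days. In both arms the inducers were then removed and 10% serum given for 6 days before the samples of day 16 (RA-16d, RA/CHIR-16d). The labels call the cells of the RA arm SMC-like and those of the RA/CHIR arm XEN-like. Extraembryonic endoderm cells (XEN) and smooth muscle cells (SMC), both untreated and in 15% serum, are the reference cells, and their derivation is not given in the sources used here. LIF, feeder cells and the culture surface changed together with the inducer between mES and day 4, so their parts in that step cannot be told apart. No label says whether the 3 libraries of a group came from separate cultures, so the p-values measure the spread between these libraries, which may be technical.

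The reference groups carried the markers of their labels. The 5 pluripotency markers summed to 2404 to 2954 FPKM in mES and to at most 0.717 in XEN, where Sox2, Zfp42 and Esrrb lay under 0.1. The 8 extraembryonic endoderm markers summed to 4951 to 5277 in XEN, all at 1 FPKM or more, and to 10469 to 10973 in RA/CHIR-16d. Their sum was also 7046 to 7266 in SMC, where only 5 of 8 reached 1 FPKM and Foxa2 lay under 0.1. The 5 smooth muscle markers summed to 17125 to 17749 in SMC and 7303 to 8227 in RA-16d, against 422 to 434 in RA/CHIR-16d. Feeder and mesenchyme markers summed to 38.6 to 65.0 in mES, with 6 of 8 at 1 FPKM or more, against 11832 to 12160 in SMC. In these bulk samples, fewer cells of a type and less RNA per cell cannot be told apart. Between 11573 and 13662 genes reached 1 FPKM per library, and log2 values of libraries within a group correlated at 0.986 to 0.994 (Pearson, across genes). In mES replicate 3 the gene AL626808.1 held 28.0% of the summed FPKM, which was 1086370 against 685294 and 675357 in the other mES libraries. The gene mt-Ts1 held 11.8% in RA/CHIR-4d replicate 2 and 12.2% in RA/CHIR-10d replicate 1. The part of these genes in the Klf levels was not tested.

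The promoters of 3 members on which the results turn are shown. Klf2 was far higher in stem cells than elsewhere, Klf4 was higher in the RA/CHIR arm, and Klf15 fell in both arms after the inducers were removed. The sequences are the RefSeq promoter stretches upstream of the start site on GRCm38.p6, read 5′ to 3′ on the strand of the gene. Klf2 (chr8:72318812-72319032, plus strand) has in capitals the match to the MEF2 site, searched as CTA, any 4 bases and TAG. Klf4 (chr4:55532476-55532725, minus strand) and Klf15 (chr6:90462326-90462575, plus strand) have the matches to the KLF/Sp box CCNCNCCC in capitals, on either strand.
Klf2: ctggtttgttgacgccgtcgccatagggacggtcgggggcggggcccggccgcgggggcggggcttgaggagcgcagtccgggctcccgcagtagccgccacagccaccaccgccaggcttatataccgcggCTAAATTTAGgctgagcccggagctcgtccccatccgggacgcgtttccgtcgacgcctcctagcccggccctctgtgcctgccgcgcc
Klf4: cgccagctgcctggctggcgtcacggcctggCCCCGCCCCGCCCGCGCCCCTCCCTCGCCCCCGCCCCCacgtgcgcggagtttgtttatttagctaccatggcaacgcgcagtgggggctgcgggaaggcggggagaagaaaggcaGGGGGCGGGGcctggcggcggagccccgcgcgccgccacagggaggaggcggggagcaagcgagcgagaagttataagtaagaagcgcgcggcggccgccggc
Klf15: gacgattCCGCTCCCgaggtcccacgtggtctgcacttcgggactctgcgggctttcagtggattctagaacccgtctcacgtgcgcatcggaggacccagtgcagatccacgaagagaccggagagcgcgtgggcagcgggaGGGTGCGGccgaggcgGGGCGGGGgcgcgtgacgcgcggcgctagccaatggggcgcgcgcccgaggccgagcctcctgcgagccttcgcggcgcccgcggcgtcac
The RefSeq table gave promoters of 8 members, all but Klf5 and Klf10. In the 250 bases upstream of the RefSeq start, on both strands and with overlapping matches counted, the KLF/Sp box occurred in 7 of the 8. It is held by 45.9% of all 32851 such windows. For Klf2 the stretch shown is 221 bases, cut where the GENCODE gene begins, while matches were counted over 250. Klf3 had 10 matches, Klf4 9, Klf7 8, Klf13 5, Klf2 4, Klf15 3, Klf6 2 and Klf9 none. The MEF2 site was found in 1 of 8 (Klf2), against 3.2% of windows. The STAT site TTCNNNGAA was found in 1 of 8 (Klf9), against 7.02% of windows. The TCF/LEF letters CTTTGA (13.8% of windows), the CRE TGACGTCA (1.55%) and the CArG box (1.47%) were found in none of the 8. These matches describe letters only.

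In stem cells Klf2 and Klf4 made up most of the summed FPKM of the 10 members. At day 4 Klf6 led among them with RA and Klf4 with RA/CHIR. The 10 members summed to 870.8 FPKM ± 71.3 (SD, n = 3) in mES, of which Klf2 was 47.8% and Klf4 23.4%. At day 4 the sum was 146.7 ± 4.31 with RA and 170.9 ± 8.08 with RA/CHIR. It was lowest in RA-10d, at 78.6 ± 0.833, where Klf3 led with 21.9%. It reached 384.2 ± 2.73 in RA/CHIR-16d, with Klf6 at 36.6%, Klf5 at 21.6% and Klf4 at 19.2%. Klf6 also led in RA-4d (25.6%), RA-16d (27.4%), XEN (28.0%) and SMC (29.3%), while Klf4 led in the RA/CHIR arm at day 4 (25.9%), day 7 (33.02%) and day 10 (29.9%). FPKM is scaled by length, so these shares compare genes.

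**Figure D1:**
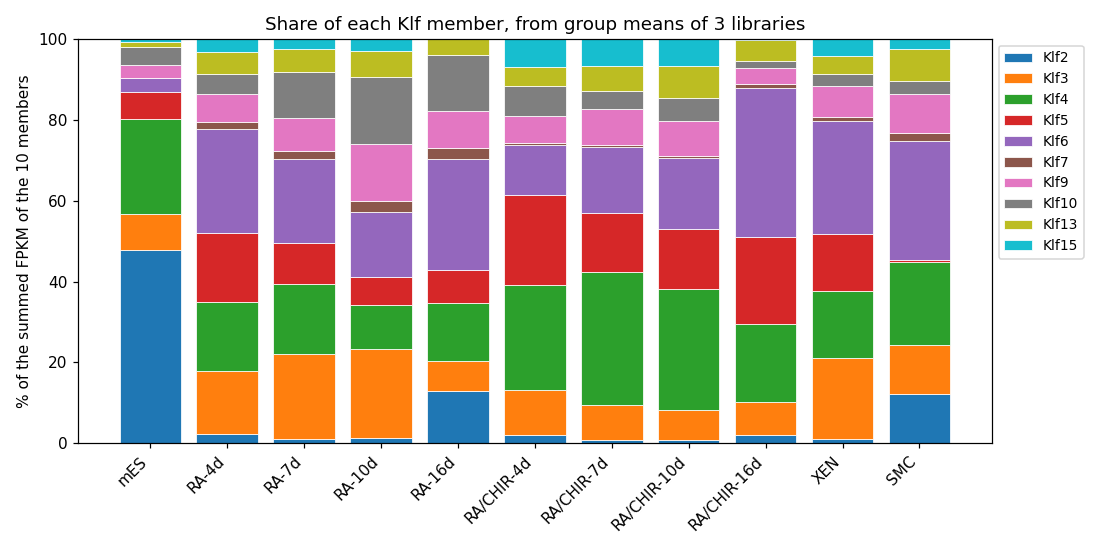
Each bar is a group and each colour the share of 1 Klf member in the summed FPKM of the 10 members, in percent, from means of 3 libraries. Klf2 fills 47.8% of the mES bar and 2.11% of the RA/CHIR-16d bar, where Klf6 fills 36.6%.

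The members differed in how far their levels ranged over the 11 groups. Klf2 ranged 461-fold between the means of mES and RA-7d, Klf5 68.0-fold, Klf15 53.7-fold and Klf4 24.0-fold. Klf6 ranged 11.1-fold, Klf10 9.10-fold, Klf7 7.02-fold and Klf3 5.54-fold. Klf13 (3.96-fold) and Klf9 (3.68-fold) ranged least. Klf3, Klf4, Klf6, Klf9 and Klf13 had means of 5 FPKM or more in all 11 groups, while Klf7 did so only in SMC and RA-16d. Exons of Klf3 and Klf7 are touched by non-coding genes on the opposite strand (Gm20033 for Klf3, Gm26649 and Gm13748 for Klf7), and whether counting used strand is not given in the sources used here, so these levels are less certain.

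**Figure D2:**
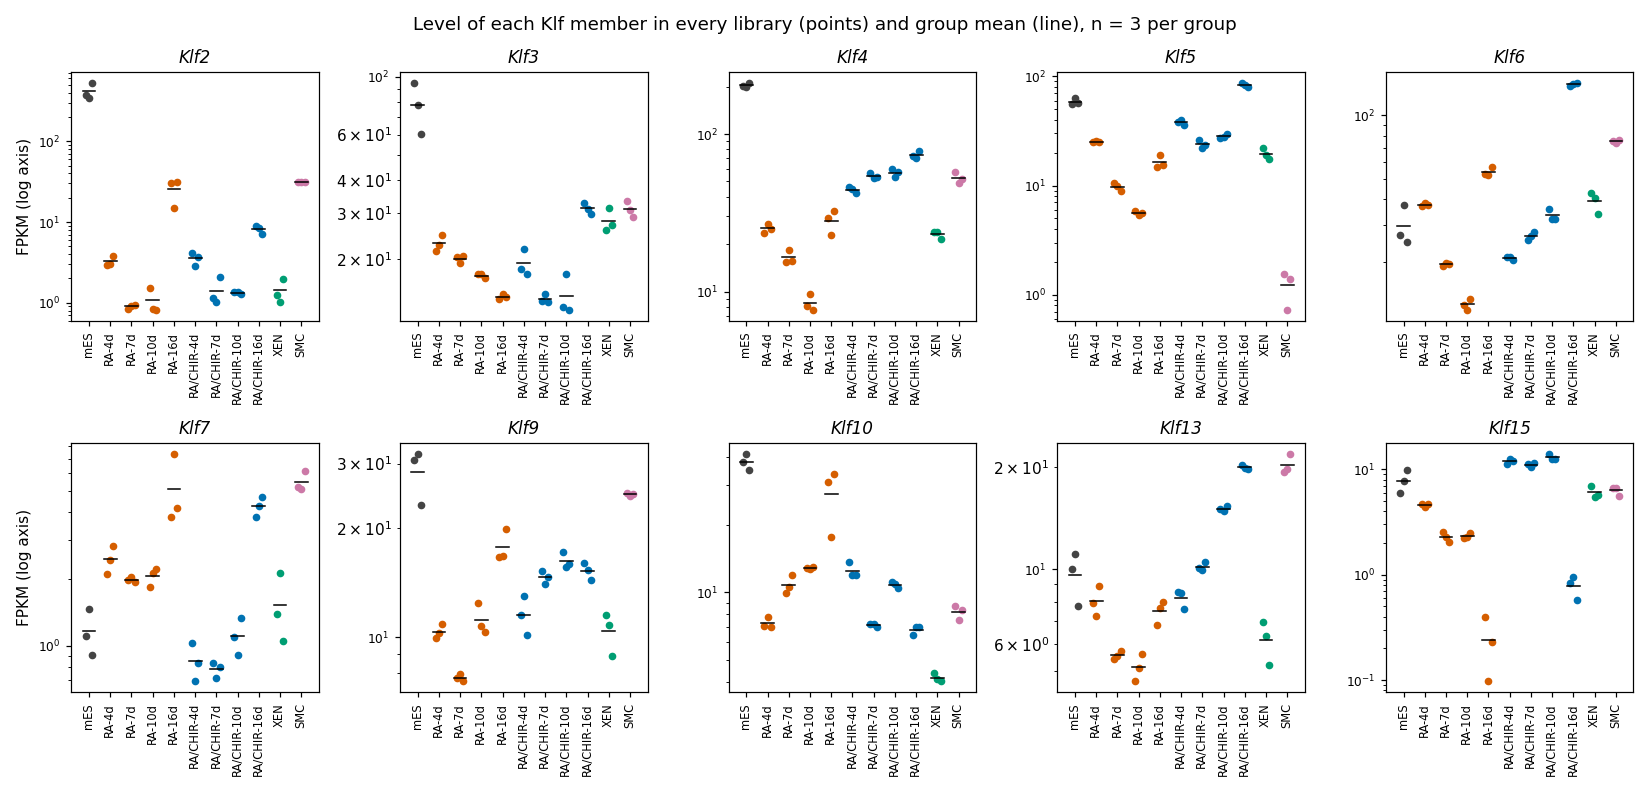
Each panel shows 1 member, with FPKM on a log axis for every library (points) and the mean of 3 libraries (line) in the 11 groups. Klf2 falls from 416 FPKM in mES to 0.902 in RA-7d, and Klf5 is lowest in SMC at 1.22.

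The order of the group means was as follows, where neighbours are called separate if their 3-library ranges do not overlap. For Klf2, mES, SMC (31.4), RA-16d (25.4) and RA/CHIR-16d (8.11) were each separate from the next group down. The 2 day-4 groups overlapped each other, and the last 5, from XEN (1.42) to RA-7d (0.902), each overlapped the next. Klf4 was highest in mES (203), followed by RA/CHIR-16d (73.9). RA/CHIR-10d, RA/CHIR-7d and SMC overlapped in turn between 56.9 and 52.5, and RA-16d, RA-4d and XEN between 28.1 and 23.2. Klf5 was highest in RA/CHIR-16d (83.1), then mES (58.6), and 8 of its 10 neighbouring steps were separate. Klf6 was highest in RA/CHIR-16d (140.8), then SMC (75.2) and RA-16d (53.7), each separate from the next.

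Among the lower members, Klf3 was highest in mES (77.8), and RA/CHIR-16d, SMC and XEN followed with overlapping ranges between 31.2 and 28.0. Klf9 was highest in mES (28.5), which overlapped SMC (24.7). Klf10 was highest in mES (38.0) and then RA-16d (27.4), and lowest in XEN (4.18), these 3 being separate from their neighbours. Klf13 was highest in SMC (20.3) and RA/CHIR-16d (20.0), which overlapped, while its means from RA/CHIR-7d (10.1) down to RA-10d (5.12) each overlapped the next. Klf15 was highest in the RA/CHIR arm at day 10, 4 and 7 (12.9 to 11.1, overlapping) and lowest in RA-16d (0.241). Klf7 was highest in SMC (5.49), RA-16d (5.09) and RA/CHIR-16d (4.27), which overlapped in turn.

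The first comparison asks what happened to the family when stem cells left LIF and met the inducers. Klf2, Klf3, Klf4, Klf9 and Klf10 fell in both arms by day 4, and Klf5 fell in the RA arm. Differences here and below are on the log2(FPKM + 1) scale, which understates changes of low genes. A gene is called where limma's adjusted p is under 0.05 and the difference is at least 1. None of the 10 was called higher. With RA, Klf7 (0.68, adjusted p = 5.1e-04) and Klf6 (0.34, adjusted p = 0.0018, libraries overlapping) were higher but below the size for a call. With RA/CHIR the same held for Klf15 (0.57, adjusted p = 2.1e-04). In RA-4d against mES 6 of 10 members were called, all lower, where 23.4% of all tested genes were called and 11.7% were called lower. In RA/CHIR-4d against mES 5 of 10 were called, all lower, with 18.2% of all tested genes called, 9.06% higher and 9.13% lower. The median member difference was -1.28 in the RA arm and -0.92 in the RA/CHIR arm, against -0.01 for all tested genes in both. Both comparisons share the mES libraries.

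Klf2, which sustains naive stem cells and in endothelium is induced through MEK5, ERK5 and MEF2, stood at 378, 348 and 523 FPKM in the 3 mES libraries. With RA at day 4 it was at 2.94, 3.05 and 3.78, and with RA/CHIR at 4.11, 2.86 and 3.66. The mES libraries lay far above all others, and the 2 arms overlapped. The ratio of means was 128 for mES over RA-4d (difference -6.60 ± 0.21 SE, limma adjusted p = 9.3e-20) and 117 for mES over RA/CHIR-4d (-6.51 ± 0.21, adjusted p = 2.0e-19).

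Klf4, a reprogramming factor and Stat3 target, stood at 202, 198 and 210.2 FPKM in mES. It was at 23.7, 27.0 and 24.9 in RA-4d and at 45.9, 44.8 and 42.1 in RA/CHIR-4d. The 3 groups did not overlap, with the RA/CHIR libraries between the others. The difference from mES was -2.97 ± 0.09 in the RA arm (adjusted p = 8.9e-20) and -2.18 ± 0.09 in the RA/CHIR arm (adjusted p = 9.6e-17).

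Klf5, active in naive stem cells and in early epithelia, stood at 55.8, 63.2 and 56.8 FPKM in mES, at 24.9, 25.5 and 24.8 in RA-4d, and at 38.0, 40.1 and 35.5 in RA/CHIR-4d. Again the RA/CHIR libraries lay between the other groups. It fell in the RA arm (-1.19 ± 0.11, adjusted p = 2.4e-10), whereas its -0.61 ± 0.11 in the RA/CHIR arm was under the size for a call.

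Klf3, a repressor that works with CtBP, stood at 94.6, 78.2 and 60.5 FPKM in mES and at day 4 at 22.9 ± 1.55 (SD, n = 3) with RA and 19.2 ± 2.30 with RA/CHIR. Its log2 difference was -1.70 and -1.95 (adjusted p = 7.7e-13 and 6.6e-14). Klf10, an early target of TGF-beta, fell from 38.0 ± 3.11 to 7.32 ± 0.422 with RA (-2.23, adjusted p = 4.0e-14) and to 12.5 ± 0.977 with RA/CHIR (-1.53, adjusted p = 1.2e-10). Klf9, a target of glucocorticoid and thyroid hormone receptors, fell from 28.5 ± 4.74 to 10.4 ± 0.446 (-1.36, adjusted p = 4.8e-12) and 11.5 ± 1.40 (-1.23, adjusted p = 5.4e-11). Klf6, Klf7, Klf13 and Klf15 were not called in either arm, with differences between -0.64 (Klf15 in the RA arm) and 0.68 (Klf7 in the RA arm). Klf7, at 1.16 FPKM in mES and 2.45 in the RA arm with all libraries higher, was called higher there with a pseudocount of 0.1 (1.0325).

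The naive pluripotency list, 15 transcription and signalling genes that share the stem cell circuit with Klf2, Klf4 and Klf5, had 13 members lower and none higher in RA-4d, with a median of -3.80. Nanog (-7.87), Esrrb (-6.81), Fgf4 (-5.85) and Nr0b1 (-5.24) changed most. In RA/CHIR-4d 12 of 15 were lower, with a median of -2.11. Of the 8 genes of the MEK5-ERK5-MEF2 route 1 was called in each arm, Mef2b, which fell from 6.40 FPKM in stem cells to 1.003 with RA (-1.89) and 1.20 with RA/CHIR (-1.91). Among 10 corepressors, coactivators and ubiquitin ligases that act with Klf proteins, the corepressor Ctbp2 fell from 91.5 FPKM to 25.8 with RA and 25.9 with RA/CHIR (-1.78 in both). Sin3a was also called lower in RA/CHIR-4d (-1.02). Of the 16 immediate early genes 11 were lower and 1 was higher in RA-4d, and 10 were lower in RA/CHIR-4d, with Fosb (-4.69 and -4.96), Egr1 (-4.39 and -4.20) and Fos (-3.40 and -6.02) changing most; their part in the Klf differences was not tested.

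The second comparison asks what CHIR added to retinoic acid. While the inducers were present Klf15 was called higher with CHIR from day 4, Klf4 and Klf5 from day 7, and Klf13 and Klf6 at day 10. That order is of reaching the size for a call. Klf4 (0.79) and Klf5 (0.57) were already higher in all libraries at day 4, and Klf13 (0.77) and Klf6 (0.43) at day 7. No member was called lower. Below that size, at an adjusted p under 0.05, Klf6 (-0.81) and Klf7 (-0.90) were lower at day 4. Klf3 (-0.48), Klf7 (-0.74) and Klf10 (-0.53) were lower at day 7, and Klf7 (-0.54) at day 10. At day 4 Klf15 alone was called, higher (7.63% of all tested genes called, 3.34% higher and 4.28% lower). At day 7 Klf15, Klf4 and Klf5 were called higher (10.7% of all tested genes called, 4.06% higher and 6.61% lower). At day 10 Klf13 and Klf6 joined them, 5 of 10 (15.4% called, 6.35% higher and 9.07% lower). The median member difference was 0.11, 0.60 and 0.92 at the 3 days, against 0.01, 0.00 and 0.00 for all tested genes.

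Klf15, a regulator of glucose and amino acid metabolism in liver and muscle, stood at 4.65, 4.41 and 4.71 FPKM in RA-4d and at 11.2, 12.5 and 11.97 in RA/CHIR-4d. At day 10 it was at 2.25, 2.28 and 2.50 with RA and at 13.8, 12.5 and 12.5 with RA/CHIR. The arms did not overlap on any of the days, and every RA/CHIR library of days 4 to 10 lay between 10.5 and 13.8. The difference was 1.21 ± 0.12 at day 4 (adjusted p = 6.3e-09), 1.88 ± 0.12 at day 7 (adjusted p = 8.5e-13) and 2.06 ± 0.12 at day 10 (adjusted p = 7.5e-14). The RA/CHIR libraries of days 4 to 10 also lay above every mES library (5.92, 7.75 and 9.80), but the 0.57 difference of RA/CHIR-4d from mES was not called.

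Klf4 fell with RA alone and was not called as changed with RA/CHIR over the same days. In the RA arm it stood at 15.5, 18.5 and 15.6 FPKM at day 7 and 8.10, 9.71 and 7.67 at day 10. In the RA/CHIR arm it stood at 56.6, 52.8 and 53.2 at day 7 and 59.9, 53.4 and 57.3 at day 10. The lowest RA/CHIR library was thus over the highest RA library on both days. The difference with CHIR was 0.79 ± 0.09 at day 4, below the size for a call, 1.66 ± 0.09 at day 7 (adjusted p = 5.9e-14) and 2.61 ± 0.09 at day 10 (adjusted p = 2.9e-18), a ratio of means of 6.70. The growth of this difference from day 4 to day 10 was 1.82 ± 0.13 (adjusted p = 1.7e-11).

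Klf5 stood with RA alone at 10.5, 9.82 and 8.89 FPKM at day 7 and at 5.86, 5.34 and 5.57 at day 10. With RA/CHIR it was at 26.0, 22.3 and 23.6 and then at 27.4, 27.8 and 29.4. The arms were separate at both days. The difference was 0.57 ± 0.11 at day 4, not called, then 1.22 ± 0.11 (adjusted p = 3.9e-10) and 2.15 ± 0.11 (adjusted p = 2.5e-15), a gain of 1.57 ± 0.15 between day 4 and day 10 (adjusted p = 3.2e-09).

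Klf6, an early response gene of epithelium and stellate cells, crossed over between the arms. At day 4 it stood at 37.0, 38.1 and 37.4 FPKM with RA and at 21.3, 21.1 and 20.4 with RA/CHIR. By day 10 it was at 12.6, 11.9 and 13.4 with RA and at 35.8, 32.3 and 32.2 with RA/CHIR. The arm that was higher in all 3 libraries at day 4 was lower in all 3 at day 10. The difference was -0.81 ± 0.09 at day 4, below the size for a call, 0.43 ± 0.09 at day 7 and 1.34 ± 0.09 at day 10 (adjusted p = 1.8e-12). Its change from day 4 to day 10, 2.15 ± 0.13 (adjusted p = 3.8e-13), was the largest of the members.

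Klf13, a Sin3A-binding factor of lymphocytes and heart, was at 8.02 ± 0.842 FPKM (SD, n = 3) at day 4 of RA and 8.22 ± 0.524 with RA/CHIR, with overlapping libraries. It reached 5.12 ± 0.472 in RA-10d and 15.1 ± 0.287 in RA/CHIR-10d. The difference was 0.03 ± 0.10, then 0.77 ± 0.10, then 1.40 ± 0.10 (adjusted p = 2.0e-12 at day 10), and it grew by 1.36 ± 0.14 (adjusted p = 6.2e-09). The change of the CHIR difference from day 4 to day 10 was called in 4 of 10 members, all upwards (Klf4, Klf5, Klf6 and Klf13). Of all tested genes 14.1% were called, 6.29% upwards and 7.83% downwards. With a pseudocount of 0.1 Klf15 was also called upwards (1.06) and Klf10 downwards (-1.0126).

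**Figure D3:**
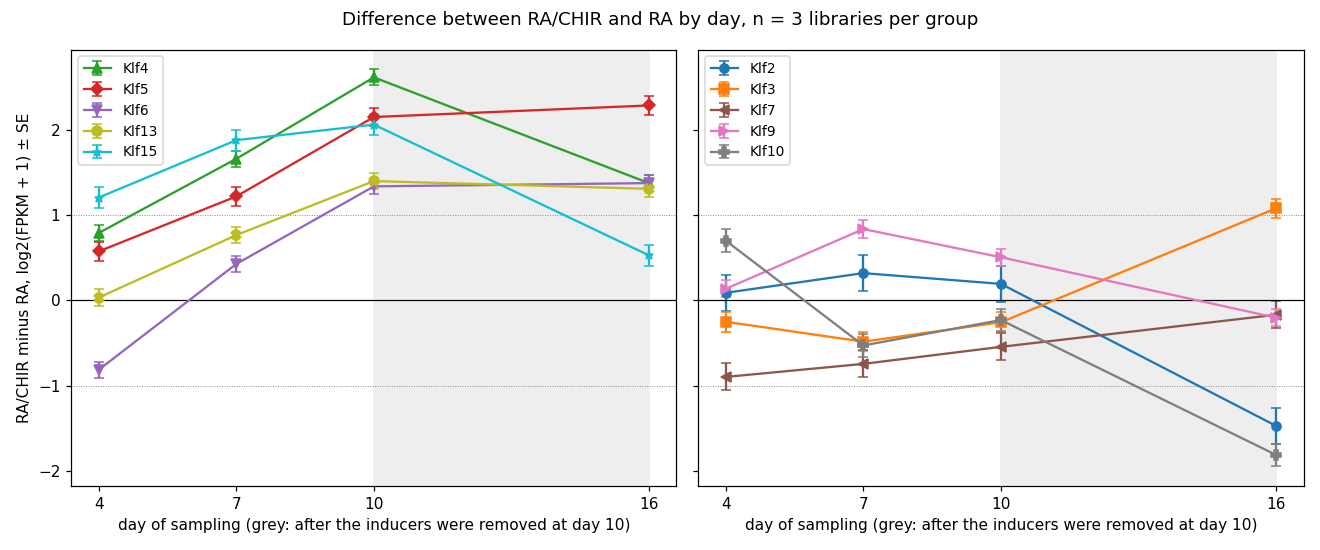
The RA/CHIR minus RA difference in log2(FPKM + 1), with its SE, is plotted against day of sampling for 5 members in each panel, and grey marks the time after the inducers were removed. Klf4 rises from 0.79 at day 4 to 2.61 at day 10 and stands at 1.37 at day 16, and Klf10 reaches -1.81 at day 16.

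The remaining members showed no called difference between the arms up to day 10. Klf7, an activator known from developing neurons, was lower in all 3 RA/CHIR libraries at each of the 3 days, at -0.90, -0.74 and -0.54, under the size for a call. Its levels were near 1 FPKM there, and with a pseudocount of 0.1 the first of these became -1.43 and the second -1.24, both called lower. Klf10 differed by 0.70 at day 4 and -0.53 at day 7. Klf9 differed by 0.84 at day 7, and Klf3 by -0.48 at day 7. Klf2 lay near 1 FPKM in both arms at days 7 and 10, and its differences of 0.09, 0.32 and 0.19 were not called.

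Within the arms, members fell over time with RA and none was called with RA/CHIR. From day 4 to day 10 of RA, Klf5 (-1.99), Klf6 (-1.50), Klf4 (-1.47) and Klf2 (-1.05) fell, 4 of 10, and no member was called higher (11.4% of all tested genes called, 6.26% higher and 5.12% lower). Klf10 was higher in all 3 libraries over these days, from 7.32 to 12.9 FPKM (0.74, adjusted p = 3.1e-05), below the size for a call, and was the 1 member higher at an unadjusted p under 0.05. In RA/CHIR no member was called over the same days by limma (8.01% of all tested genes called, 3.91% higher and 4.1% lower). At an adjusted p under 0.05 but below the size for a call, 4 were higher and 3 lower. Of these, Klf13 (0.81) and Klf6 (0.65) had the largest positive differences and Klf2 (-0.95) the largest negative one. The share of all tested genes at that threshold was not computed, so this count cannot be set against it. The Klf2 call in the RA arm was close to the size for a call, and its difference became -0.97 without RA-4d replicate 3, -0.98 without RA-10d replicate 2 and -0.97 without RA-10d replicate 3, none of these called.

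The third comparison asks what followed the removal of the inducers. Klf2, Klf5 and Klf6 rose in both arms, Klf4 rose in the RA arm, Klf3 and Klf7 rose in the RA/CHIR arm, and Klf15 fell in both. In RA-16d against RA-10d 4 members were higher and 1 lower (9.17% of all tested genes called, 7.37% higher and 1.8% lower). Of all calls in that comparison 80.4% were higher, and 69.9% with quantile normalization. In RA/CHIR-16d against RA/CHIR-10d 5 were higher and 1 lower (14.8% called, 8.47% higher and 6.28% lower). The median member difference was 0.96 and 0.73, against 0.01 and 0.00 for all tested genes. Markers of other cells moved over the same step. Mesenchyme markers were higher in 8 of 8 cases with RA (median 4.02) and 7 of 8 with RA/CHIR (median 2.97), with sums of 207 to 223 FPKM at day 10 and 2934 to 3621 at day 16 of RA, and of 27.1 to 28.1 and 431 to 469 with RA/CHIR. Smooth muscle markers were higher in 5 of 5 and 3 of 5 cases. Their part in the Klf steps was not tested.

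Klf6 went from 12.6, 11.9 and 13.4 FPKM to 52.7, 52.0 and 56.6 in the RA arm. In the RA/CHIR arm it went from 35.8, 32.3 and 32.2 to 139, 142 and 142. Each arm moved up by about the same factor, 4.25 and 4.21, from different starting levels. The differences were 2.01 ± 0.09 (adjusted p = 8.3e-16) and 2.04 ± 0.09 (adjusted p = 3.1e-16), and the step did not differ detectably between arms (0.04 ± 0.13, adjusted p = 0.84). Klf5 moved likewise, from 5.59 to 16.4 with RA (1.39, adjusted p = 3.6e-11) and from 28.2 to 83.1 with RA/CHIR (1.53, adjusted p = 3.4e-12), with a difference between the steps of 0.14 ± 0.15.

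Klf2 went from 1.54, 0.845 and 0.819 FPKM to 30.4, 14.8 and 30.9 in the RA arm, and from 1.37, 1.34 and 1.29 to 8.84, 8.42 and 7.05 in the RA/CHIR arm. All libraries of day 16 lay above all of day 10, and replicates 1 and 3 of RA-16d were over 3 times the highest RA/CHIR-16d library. It rose by 3.62 ± 0.21 (adjusted p = 1.1e-13) and 1.96 ± 0.21 (adjusted p = 9.9e-09). The step was smaller in the RA/CHIR arm by 1.66 ± 0.30 (adjusted p = 4.9e-05).

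Klf15 went the other way. It stood at 0.395, 0.0982 and 0.230 FPKM in RA-16d and at 0.836, 0.959 and 0.570 in RA/CHIR-16d, against 2.34 and 12.9 on average at day 10. These were the lowest Klf15 levels of the 11 groups. It fell by 1.44 ± 0.12 in the RA arm (adjusted p = 2.0e-10) and by 2.97 ± 0.12 in the RA/CHIR arm (adjusted p = 4.4e-17). The step differed between the arms by -1.53 ± 0.17 (adjusted p = 4.7e-08), a value that depends on the scale at such low levels, since it was -0.96 and no longer called with a pseudocount of 0.1.

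Klf4 rose from 8.10, 9.71 and 7.67 FPKM to 29.1, 22.9 and 32.4 with RA (1.61 ± 0.09, adjusted p = 1.2e-13). With RA/CHIR it was at 73.0, 70.9 and 77.7, which is 0.37 ± 0.09 over day 10 and not called. Klf3 was not called with RA, at 13.9, 14.6 and 14.2 (-0.26), but rose with RA/CHIR from 13.02, 17.4 and 12.7 to 32.8, 31.0 and 29.8 (1.08 ± 0.11, adjusted p = 9.1e-09, but 0.9958 and not called with quantile normalization). Klf7 rose in the RA/CHIR arm from 1.11 to 4.27 (1.32, adjusted p = 7.1e-08), while its 0.95 in the RA arm was below the size for a call, with replicate 2 highest at 7.30 FPKM against 3.79 and 4.16. It was called without replicate 1 (1.10) or replicate 3 (1.04) and with a pseudocount of 0.1 (1.20), and was 0.70 without replicate 2. The test of the step between the arms called 5 of 10 members, Klf3 higher and Klf2, Klf4, Klf10 and Klf15 lower in RA/CHIR (14.8% of all tested genes called, 6.02% higher and 8.81% lower).

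**Figure D4:**
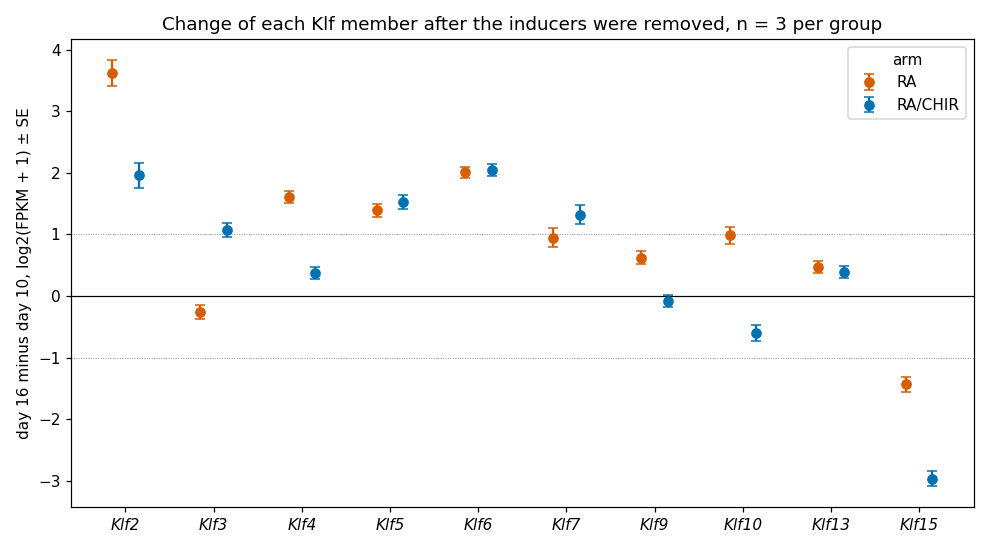
Day 16 minus day 10 in log2(FPKM + 1), with its SE, is shown for each member in the RA arm and the RA/CHIR arm. Klf6 moves alike in both (2.01 and 2.04), and Klf10 lies at 0.98 with RA and -0.60 with RA/CHIR.

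Klf10 was higher in all 3 RA-16d libraries than in any RA-10d library, but at the edge of a call. It went from 12.9, 12.8 and 13.0007 FPKM to 30.9, 17.6 and 33.7, with replicate 2 well under the other libraries. The difference of 0.98 ± 0.13 was just under the size for a call (adjusted p = 7.0e-07). It was called higher with a pseudocount of 0.1 (1.03) and without RA-16d replicate 2 (1.26). The same library was lowest for 14 of 16 immediate early genes, 12 of which were under 0.67 of the mean of the other 2 libraries. Their summed FPKM was 3188, 1601 and 3420 in the 3 RA-16d libraries, against 1064, 1044 and 1041 in RA/CHIR-16d. How many of all tested genes were lowest in this library was not counted. Among the members Klf2, Klf10 and Klf15 were under 0.67 in it, Klf15 at levels under 1 FPKM in all 3 libraries. Klf7 (1.84 times the mean of the others) and Klf5 (1.26 times) were higher in it. Without this library the RA step of Klf2 was 3.96 in place of 3.62, and its step difference between arms was -1.998. Immediate early genes are switched on within minutes of serum, stress or handling. They were higher at day 16 than at day 10 in 15 of 16 cases in each arm. Their medians were 3.06 with RA and 2.12 with RA/CHIR. Of all tested genes 7.37% (RA) and 8.47% (RA/CHIR) were called higher over this step. Nr4a1 (6.59), Fosb (5.84), Egr1 (4.60) and Fos (4.18) changed most with RA. Their part in the Klf2, Klf6 and Klf10 steps was not tested.

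**Figure D5:**
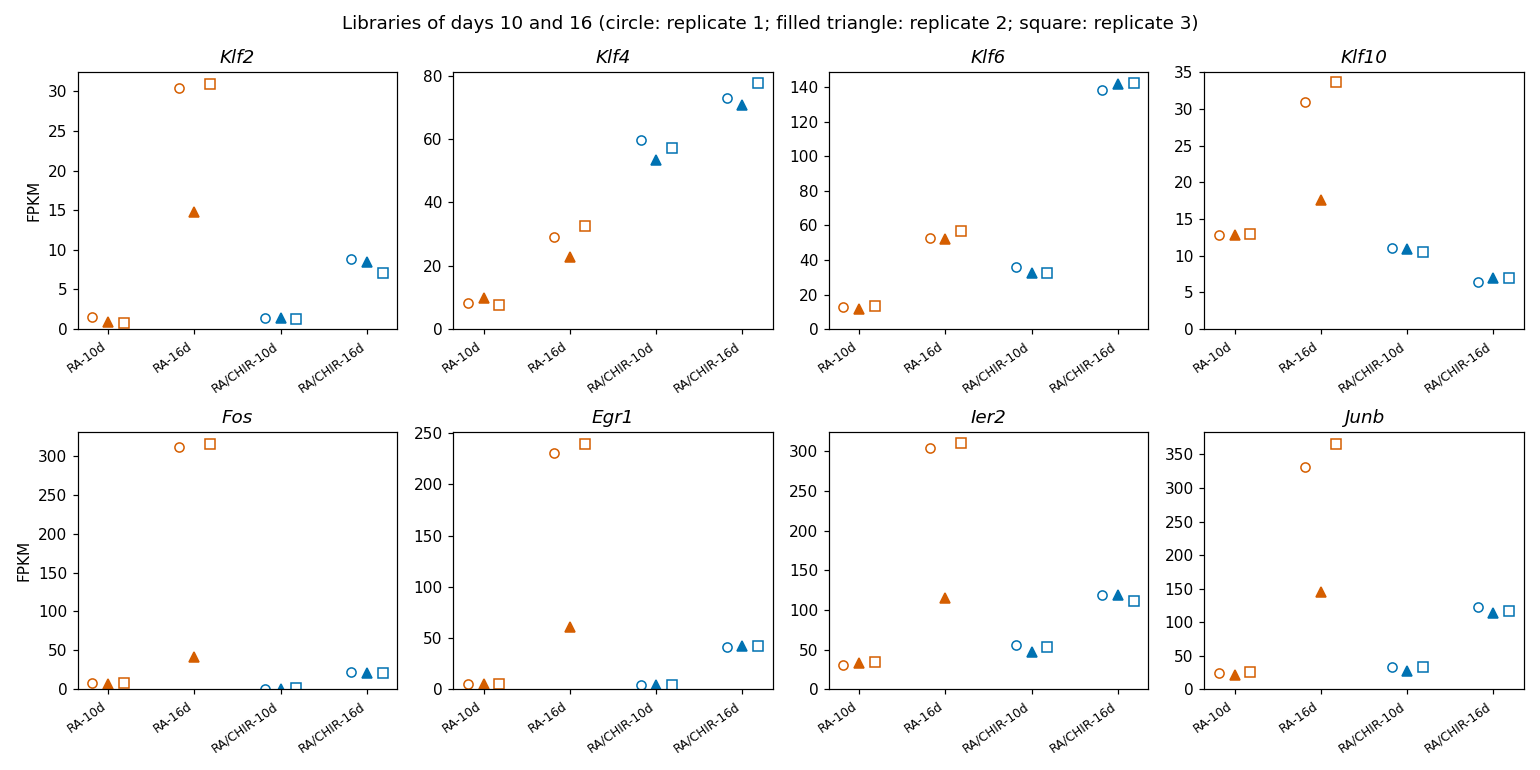
FPKM of 4 members and 4 immediate early genes is shown for each library of day 10 and day 16, with a symbol for each replicate number. The filled triangle of RA-16d (replicate 2) lies low for Klf2 (14.8) and Klf10 (17.6) but not for Klf6 (52.0).

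At day 16 the arms differed in 7 of 10 members. Klf5, Klf6, Klf4, Klf13 and Klf3 were higher and Klf10 and Klf2 lower in RA/CHIR (21.3% of all tested genes called, 8.41% higher and 12.9% lower). Klf5 stood at 14.8, 18.9 and 15.3 FPKM in RA-16d and at 86.7, 83.4 and 79.2 in RA/CHIR-16d (2.28 ± 0.11, adjusted p = 4.2e-16). Klf6 differed by 1.37 ± 0.09 (adjusted p = 6.5e-13), Klf4 by 1.37 ± 0.09 (adjusted p = 1.1e-12) and Klf13 by 1.31 ± 0.10, at 7.51 ± 0.599 against 20.0 ± 0.295 FPKM (adjusted p = 5.2e-12). These 4 members, and Klf3 (1.08 ± 0.11, adjusted p = 6.1e-09), were higher in all 3 libraries, in a comparison where 62.9% of all tested genes had libraries that did not overlap between the arms.

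Klf10 was at 6.47, 7.00 and 7.01 FPKM in RA/CHIR-16d, below every RA-16d library (-1.81 ± 0.13, adjusted p = 3.3e-12, and -2.09 without RA-16d replicate 2). Klf2 was -1.47 ± 0.21 (adjusted p = 9.3e-07, and -1.80 without that library). Klf10 thus differed between arms in opposite directions at day 4 (0.70, not called) and day 16, a change of -2.51 ± 0.19 (adjusted p = 8.1e-12). The changes of the CHIR difference between day 4 and day 16 were called in 6 members, 4 upwards and 2 downwards (25.5% of all tested genes called, 10.5% upwards and 14.9% downwards). Between day 7 and day 16 they were called in 6, 2 upwards and 4 downwards (18.5% called, 7.78% upwards and 10.8% downwards). With a pseudocount of 0.1 Klf7 was called upwards in both (1.23 and 1.05). The cells of the arms also differed in kind at day 16, since 5 of 5 smooth muscle markers and 7 of 8 mesenchyme markers were lower and 8 of 8 endoderm markers higher in RA/CHIR. Of 5 pluripotency markers 4 were higher there too (median 2.28), with sums of 178 to 188 FPKM against 7.55 to 9.68 in RA-16d. The part of cell composition in the Klf differences was not tested.

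Compared with the stem cells they came from, cells of day 16 were called lower in Klf2, Klf3, Klf4 and Klf15 in both arms. In RA-16d 1 member was higher (Klf7) and 5 lower (Klf2, Klf4, Klf15, Klf3 and Klf5), where 36.7% of all tested genes were called (20.4% higher and 16.3% lower). In RA/CHIR-16d 2 were higher (Klf6, 2.22, and Klf7, 1.29) and 5 lower (Klf2, Klf10, Klf15, Klf4 and Klf3), where 36.3% were called (18% higher and 18.3% lower). Klf2 remained 16.4 times lower in RA-16d and 51.3 times lower in RA/CHIR-16d than in mES. Below the size for a call, Klf9 was lower than mES in all libraries of RA-16d (-0.65) and RA/CHIR-16d (-0.85). Klf10 was lower in all libraries of RA-16d (-0.51), and Klf13 there was lower with overlapping libraries (-0.31). Klf5 in RA/CHIR-16d was 0.50 ± 0.11 above mES and not called, while all 3 libraries lay above those of mES. Klf13 was 0.9957 above mES in the same cells, at the edge of the size for a call, and was called with TMM-kind scaling (1.03), with a pseudocount of 0.1 (1.0627) and in 4 fits with 1 library fewer: without mES replicate 1 (1.03), mES replicate 2 (1.09), RA/CHIR-16d replicate 2 (1.0009) and RA/CHIR-16d replicate 3 (1.0021). Klf6 in RA-16d, 0.85 above mES and not called, was called without mES replicate 2 (1.0215).

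The reference cells differed most in Klf2, which was lower in XEN than in SMC, and in Klf5, which was higher. Klf5 stood at 21.9, 18.9 and 17.4 FPKM in XEN and at 1.54, 0.726 and 1.40 in SMC (3.21 ± 0.11, adjusted p = 8.8e-20). Klf2, known for its part in vascular cells, stood at 1.24, 1.02 and 1.99 in XEN and at 31.3, 31.4 and 31.4 in SMC (-3.76 ± 0.21, adjusted p = 7.1e-15). Klf13 (-1.58), Klf7 (-1.38), Klf9 (-1.18) and Klf4 (-1.14) were also lower in XEN, so that 1 of 10 was higher and 5 lower (29.7% of all tested genes called, 12.5% higher and 17.2% lower). With quantile normalization Klf4 (-0.99) and Klf7 (-0.92) were no longer called. Klf3, Klf15, Klf6 (-0.94) and Klf10 (-0.83) were not called, and Klf6 was called without XEN replicate 1 (-1.0024).

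Against mES, XEN had 6 members called lower and none called higher (33.1% of all tested genes called, 14.4% higher and 18.7% lower). The 6 were Klf2, Klf4, Klf10, Klf5, Klf3 and Klf9. Klf6 was 0.39 higher (adjusted p = 4.4e-04), below the size for a call and with overlapping libraries. The median of all tested genes was -0.13 in that comparison and 0.02 with quantile normalization. SMC had 5 lower (Klf5, Klf2, Klf10, Klf4 and Klf3) and 3 higher (Klf7, Klf6 and Klf13), with 43.2% of all tested genes called (21% higher and 22.2% lower). The Klf13 call was at the edge, at 1.0136, and was lost without mES replicate 3 (0.88) or SMC replicate 3 (0.96), and with quantile normalization (0.89).

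The induced cells were compared with the reference cells whose names they carry. RA/CHIR-16d had 6 members above XEN, Klf5 (2.05), Klf2 (1.93), Klf6 (1.83), Klf4 (1.63), Klf13 (1.56) and Klf7 (1.08), and Klf15 below it (-1.98), where 23.2% of all tested genes were called (14.5% higher and 8.64% lower). The call of Klf7 was lost without XEN replicate 3 (0.94). Of all calls in this comparison 62.7% were higher, and 50.4% with quantile normalization, which left Klf7 at 0.53 and uncalled. RA-16d had Klf5 (2.98) and Klf10 (1.58) above SMC and Klf15 (-2.56), Klf13 (-1.32) and Klf3 (-1.07) below it, where 25.5% of all tested genes were called (15% higher and 10.5% lower). Klf2 and Klf7 were not called between RA-16d and SMC (-0.37 and -0.13). Without RA-16d replicate 2 these differences were -0.031 for Klf2 and -0.38 for Klf7 (adjusted p = 0.022), neither called. Klf15 lay at 6.03 ± 0.764 FPKM in XEN and 6.30 ± 0.661 in SMC, while both day-16 groups were under 1 FPKM.

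Of the 7 other Klf genes 4 were tested, and Klf1, Klf14 and Klf17 stayed under 1 FPKM on average in every group. Klf8, a CtBP-binding relative of Klf3, was higher in RA/CHIR than in RA at day 7 (9.45 against 1.93 FPKM, 1.84) and day 10 (9.84 against 0.829, 2.58). It was still higher at day 16, without CHIR (7.62 against 3.12, 1.06), and not called at day 4 (-0.31). Klf11, a TGF-beta inducible relative of Klf10, rose after removal of the inducers in RA/CHIR from 5.37 to 17.2 FPKM (1.51). Of the 9 Sp genes 7 were tested. Sp5, a direct Wnt target, was at 33.5 FPKM in RA/CHIR-4d against 0.159 in RA-4d (4.90), and still higher at day 7 (2.94) and day 10 (1.10). At day 16, without CHIR, it was lower in RA/CHIR (-1.25). Sp6 was also higher at day 4 (2.91) and lower at day 16 (-1.29), and Sp8 was higher at days 7, 10 and 16 (1.62, 1.60 and 1.54).

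The gene lists around the family differed as follows between RA/CHIR and RA. Of all tested genes, 3.34%, 4.06%, 6.35% and 8.41% were called higher at day 4, 7, 10 and 16. The shares called lower were 4.28%, 6.61%, 9.07% and 12.9%. Naive pluripotency genes were higher in 7, 9, 8 and 9 of 15 cases on these days. They were lower in 1 case, Gbx2 at day 16 (-2.21). Their median difference was 0.84, 1.36, 1.64 and 1.38. Esrrb, a nuclear receptor of the same circuit, changed most at day 4 (4.08), at 31.5 against 0.916 FPKM. LIF and Stat3 pathway genes went the other way at day 4, with 7 of 11 lower, and Socs3 (-2.40), Il6st (-1.94), Lifr (-1.93) and Pim3 (-1.30) changed most. At day 7, 10 and 16 each, 1 was lower (Pim1), and 1 was higher at day 10 (Lif, 1.13) and day 16 (Lifr, 2.54). Klf4, whose gene is a Stat3 target, was 0.79 higher at day 4 while Socs3, another such target, stood at 5.24 against 31.7 FPKM. The part of Stat3 in the Klf4 difference was not tested.

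At day 16 TGF-beta response genes were lower in RA/CHIR than in RA in 4 of 10 cases, Tgfbi (-3.75), Ltbp2 (-3.01), Tgfb2 (-2.17) and Tgfb1 (-1.03). Tgfbr2 was higher (1.03) and 5 were not called. Of all tested genes 12.9% were called lower and 8.41% higher. Klf10 was lower in the same comparison. The part of TGF-beta in the Klf10 difference was not tested. Of 10 glucocorticoid and clock genes 3 were lower, Hsd11b1 (-2.08), Cebpd (-1.80) and Fkbp5 (-1.36), beside Klf9 (-0.20) and Klf15 (0.53), which were not called. Klf15 was higher in all 3 RA/CHIR-16d libraries, at 0.788 against 0.241 FPKM, and was called higher with a pseudocount of 0.1 (1.45). In XEN against SMC 9 of these 10 glucocorticoid and clock genes were lower, where 17.2% of all tested genes were called lower. Fkbp5 (-4.09) and Cebpd (-3.79) led, with Hsd11b1 listed at 0 in XEN and Tsc22d3 at -2.40. Klf9 was lower too while Klf15 was not called. The part of glucocorticoid signalling in these Klf levels was not tested. None of the 10 Klf cofactors and none of the 8 MEK5-ERK5-MEF2 genes was called between the arms by limma on any of the 4 days. At an unadjusted p under 0.05, 4 to 8 of the cofactors and 4 of the 8 pathway genes differed on each day. They went in both directions except for the pathway genes at day 4, which were all lower. The share of all tested genes at that p was not computed, so these counts cannot be set against it.

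Across the 11 group means, the members did not follow 1 common pattern. Pearson's r of log2(FPKM + 1) between pairs of members ran from -0.739 for Klf7 and Klf15 to 0.843 for Klf2 and Klf9, as a description over 11 groups, of which the 8 treated ones come from the same stem cells. Among 11672 genes searched, those with a pattern close to a member's included Vwa3b (0.968) and Nptx2 (0.953) for Klf2 and Kpna1 (0.965) for Klf3. They included Eif2s2 (0.930) for Klf4, Mtcl1 (0.960) and Taf7 (0.956) for Klf5, and Arcn1 (0.962) for Klf6. For the others they were Errfi1 (0.966) for Klf7, Fzd5 (0.930) for Klf9, Ccdc3 (0.933) for Klf10, Bag1 (0.927) for Klf13 and Dph5 (0.955) for Klf15. No member was among the nearest genes of another.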

How the data were processed

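Polyadenylated RNA was sequenced as paired reads of 150 bases, about 25 M reads per library, per the labels' protocols. Per the submitters' processing notes, Cufflinks and Cuffdiff, HISAT2 2.0.4 and Trimmomatic 0.33 were used, with the build GRCm38. The deposited values are FPKM, made by the authors, with no counts, so the depth behind a value and its counting error are not known. All 33 libraries were mapped by column name. Columns of other samples numbered 0, and no 2 libraries were identical.

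FPKM was analysed as log2(FPKM + 1) with limma 3.58.1 in R 4.3.3. One model of 11 groups with a trended prior variance (residual df 22, prior df 3.05) was fitted to the 16508 genes that reached 1 FPKM in 3 or more libraries. Tests were two-sided with Benjamini-Hochberg adjustment over all these genes, and a call needed adjusted p under 0.05 and a difference of at least 1. There were 18 comparisons, and 3 more (changes of the CHIR difference between days) were added after the values were seen. The fit was tested on simulated data. The members and gene lists were chosen with earlier results of these data known. All 10 members are named. Of each list, counts are given and up to 4 called genes named, largest change first, and up to 3 genes most like a member, with 1 item not reported here. Alternatives were TMM-kind scaling, quantile normalization, a pseudocount of 0.1, no filter, FPKM of at least 5, only the groups compared, no variance trend, replicate number as a block and leaving out each library. Gene models came from GENCODE on GRCm38 and promoters from RefSeq (GRCm38.p6).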

Additional observations from a re-analysis of the deposited data

Results flagged for a closer look

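These results stand out because the effect of one contrast differed between arms or days, by a test of that difference in limma with adjustment over all genes. Every value is on the log2(FPKM + 1) scale.

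The step from day 10 to day 16 differed between RA/CHIR and RA for 5 members. It was smaller or more negative in RA/CHIR for Klf2 (-1.66), Klf10 (-1.58), Klf15 (-1.53) and Klf4 (-1.24), and larger for Klf3 (1.33). The steps of Klf10 were 0.98 in RA and -0.60 in RA/CHIR, neither called, and those of Klf3 were -0.26, not called, and 1.08, called higher.

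The RA/CHIR minus RA difference moved upwards between day 4 and day 10 for Klf6 (2.15), Klf4 (1.82), Klf5 (1.57) and Klf13 (1.36). Between day 4 and day 16 it moved upwards for Klf6 (2.19), Klf5 (1.71), Klf3 (1.33) and Klf13 (1.27). It moved downwards for Klf10 (-2.51) and Klf2 (-1.56). Klf10 thereby went from 0.70 to -1.81 and Klf2 from 0.09 to -1.47, so downwards does not mean that the arms came closer. Klf6 went from -0.81 to 1.37 and Klf3 from -0.25 to 1.08, each changing sign. Between day 7 and day 16 the difference moved upwards for Klf3 (1.56) and Klf5 (1.07). It moved downwards for Klf2 (-1.79), Klf15 (-1.35), Klf10 (-1.28) and Klf9 (-1.04). These went from 0.32 to -1.47, 1.88 to 0.53, -0.53 to -1.81 and 0.84 to -0.20, in that order. The Klf9 value was no longer called without RA-16d replicate 3 (-0.957) or RA/CHIR-16d replicate 3 (-0.9979) or with TMM-kind scaling (-0.976), and the Klf15 value was -0.78 and not called with a pseudocount of 0.1. The comparisons with day 16 set cells with the inducers against cells 6 days after their removal, so time and removal cannot be told apart in them.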

How the results depend on the processing

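Of 1680 member differences under settings that keep all libraries, 1658 kept their side of the threshold, 8 lost the call and 14 gained it. Of 1500 with a library left out, 1482 kept their side, 8 lost the call and 10 gained it. No difference called in either fit reversed in direction. Direction was not compared for differences uncalled in both fits. Among these, Klf7 in RA/CHIR against RA at day 16 went from -0.17 to 0.078 without RA-16d replicate 2. The number of members called moved by over 1.5 times in RA/CHIR against RA at day 4 with a pseudocount of 0.1 (2 in place of 1, Klf7 added) and in RA/CHIR-10d against RA/CHIR-4d (1 in place of 0, Klf2 at -1.33). The latter ranged from 0 to 1 when libraries were left out, being 1 without RA/CHIR-4d replicate 2 (Klf2 at -1.06). The cause was not tested. With a pseudocount of 0.1 the count over all genes was 2192 in place of 1259 for CHIR at day 4, 2964 in place of 1762 at day 7 and 3888 in place of 2546 at day 10. It was 3066 in place of 1880 for RA-10d against RA-4d, 2378 in place of 1322 for RA/CHIR-10d against RA/CHIR-4d, 2339 in place of 1514 for RA-16d against RA-10d and 3820 in place of 2435 for RA/CHIR-16d against RA/CHIR-10d. Replicate numbers did not pair the libraries: correlations of same-numbered deviations ran from -0.0763 to 0.112, and 16 of 51 libraries were closest to their own number. With the replicate block the members called in RA/CHIR against RA were 1, 3, 5 and 7 at days 4, 7, 10 and 16. These counts were the same without it, and no other count of members moved. Levels near 1 FPKM (Klf2 at days 7 and 10, Klf7, Klf15 at day 16) depend on the pseudocount, and without counts their sampling error cannot be stated.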
